A study of Homo sapiens with 6 samples.

Results

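The genes described here encode 7 chains of the receptors for myeloid cytokines: IL3RA, CSF2RA, IL5RA, CSF2RB, CSF3R, IL6R and IL6ST. They were taken by symbol from a table of read counts for 58233 Ensembl gene identifiers. Of the 7, 6 passed the filter on low counts, by which 13028 genes were tested, and IL5RA did not. The counts come from polyadenylated RNA of OCI-AML2, an established human cell line from acute myeloid leukemia. There were 3 libraries labelled IKZF1-ko, from CRISPR-edited cells with IKZF1 as the target, and 3 labelled NT control, from cells with a non-targeting control, and all were grown in the same RPMI medium with serum. The labels give no guide sequence, and neither drug named in the series title, palbociclib or venetoclax, is given as a treatment of these libraries. The design text counts separate lines while the RNA protocol mentions parental and knockout cells in triplicate, so the replicates may be lines, cultures or extractions, and p-values measure only the spread between these libraries.

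The receptors of interleukin 3, GM-CSF and interleukin 5 each pair a ligand-binding alpha chain (IL3RA, CSF2RA and IL5RA) with the common beta chain CSF2RB, which carries the signal through the kinase JAK2 to the transcription factor STAT5. The G-CSF receptor CSF3R signals as a pair of identical chains. Interleukin 6 binds IL6R, and the complex signals through IL6ST, also called gp130, which is shared by a family of cytokines. These receptors drive survival, proliferation and maturation of myeloid progenitors, and IL3RA protein, CD123, is a surface marker of leukemic blasts.

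Library totals ran from 11300519 to 18214328 counts. IKZF1, which encodes the zinc-finger transcription factor Ikaros, had 421, 426 and 436 CPM (counts scaled to library size with TMM factors) in the libraries labelled IKZF1-ko and 331, 292 and 334 CPM in NT control. Its mRNA was thus not lower in any library labelled IKZF1-ko, and it was higher with the library-set term described next (log2 fold change 0.43, edgeR adjusted p = 1.23e-05); counts per gene see neither the edit nor Ikaros protein, and the labels stay unchecked by it. IKZF1-ko replicate 1 and NT control replicate 2 stood apart from the other 4 libraries along the first principal component of log2 CPM, which held 67.6% of the variance. The summed level of 12 hypoxia-responsive genes went with this split, at 2166 CPM in IKZF1-ko replicate 1 and 1868 CPM in NT control replicate 2, against 702 to 820 CPM in the other 4. With the set term 5 of its 11 tested genes rose and 0 fell. Its part in the receptor values was not tested. Each comparison is therefore given on group alone, with a term for these library sets, and within the 4 libraries. The set term and the choice of the 4 libraries were both defined from the same counts. The p-values of both fits therefore leave out the uncertainty of that choice. The last 2 fits share 4 libraries and do not check each other.

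All 6 tested receptor genes had a higher fitted level in IKZF1-ko in every one of these fits, but how many passed the test depended on how the library sets were treated. With the library-set term 4 of 6 rose and 0 fell (IL3RA, CSF2RA, IL6R and CSF3R) in edgeR's quasi-likelihood test with Benjamini-Hochberg adjustment over all genes. Over all genes tested, 6.93% were called higher and 6.62% lower in that fit. Within the 4 libraries the same 4 genes rose and 0 fell, where 7.64% of all genes were called higher and 7.10% lower. On group alone 0 of 6 were called, as were 0 of all 13028 genes (0.00% in each direction), and 456 genes (3.50%) had an unadjusted p under 0.05, none of them a receptor gene of the 7. For the same contrast the number of called genes was 71 with DESeq2, 1 with limma-voom and 8 with edgeR when low counts were kept. With 1 surrogate variable in place of the set term, 3 of 6 rose (IL6R, CSF2RA and CSF2RB), against 4.41% of all genes called higher and 3.63% lower. The median log2 fold change of the 6 was 0.22 with the set term and 0.20 in the 4 libraries, and that of all genes tested was 0.002 in both.

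**Figure D1:**
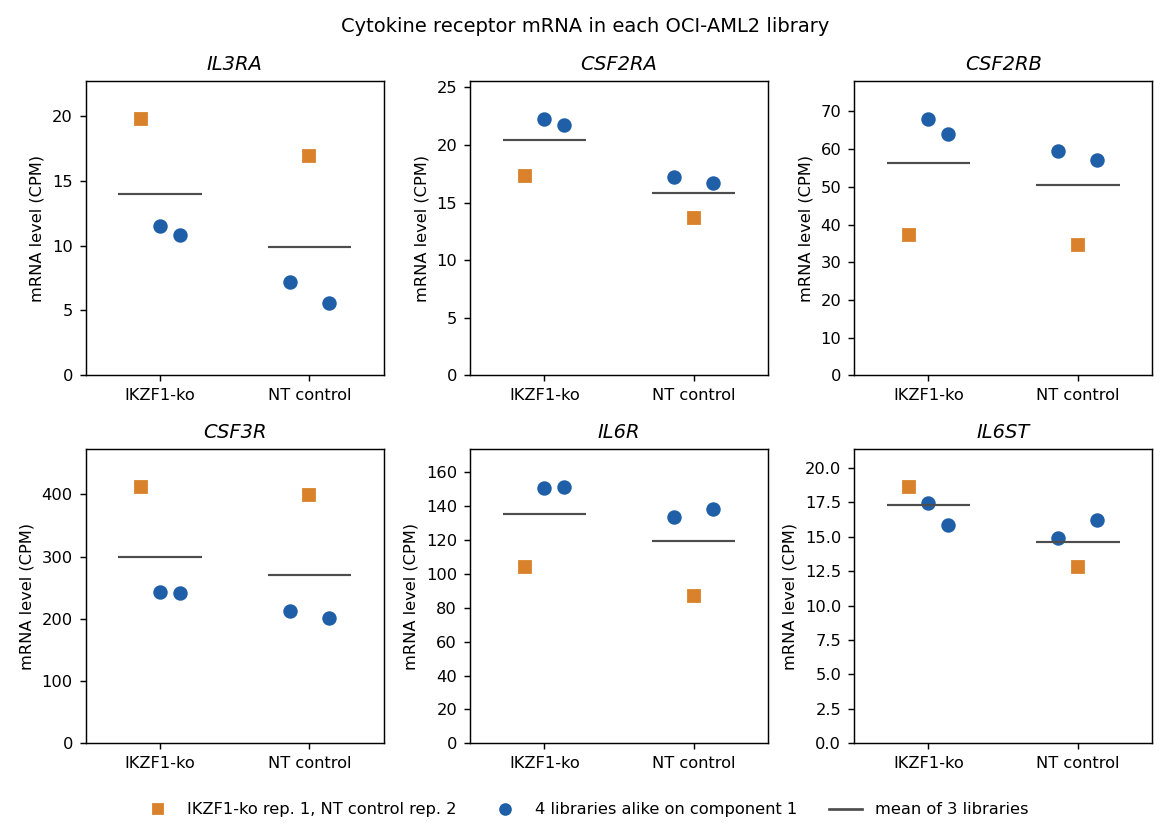
mRNA level (CPM, linear axes from 0) of the 6 tested receptor genes in each library, IKZF1-ko left and NT control right; squares are the libraries that stood apart, circles the other 4, and lines the mean of 3. Squares lie above the circles for IL3RA and CSF3R and below them for CSF2RB and IL6R, and IL3RA runs from 10.8 to 19.7 CPM in IKZF1-ko and from 5.60 to 16.9 CPM in NT control.

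IL3RA (ENSG00000185291, GRCh38 chromosome X, 1336616 to 1382689, plus strand) encodes the alpha chain that binds interleukin 3. It had 295, 210 and 183 counts in IKZF1-ko replicates 1, 2 and 3, or 19.7, 11.5 and 10.8 CPM. In NT control replicates 1, 2 and 3 it had 85, 247 and 64 counts, or 7.21, 16.9 and 5.60 CPM. The groups overlapped over 6 libraries, because NT control replicate 2 was above IKZF1-ko replicates 2 and 3; within the 4 libraries both IKZF1-ko values were above both NT control values. Means were 14.0 ± 4.96 CPM in IKZF1-ko and 9.89 ± 6.09 CPM in NT control (SD, n = 3 each). IL3RA was 1.45-fold higher with the set term (log2 fold change 0.54, SE 0.13, edgeR adjusted p = 0.013) and 1.74-fold higher in the 4 libraries (0.80, SE 0.16, edgeR adjusted p = 7.00e-04). In the pair of libraries that stood apart, 1 per group and without a test, the difference was 0.22 on the log2 scale. With the surrogate variable it was 0.39 and did not pass (edgeR adjusted p = 0.091), and the call with the set term was also lost without IKZF1-ko replicate 3 (edgeR adjusted p = 0.0504), NT control replicate 1 (0.053) or NT control replicate 3 (0.064).

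CSF2RA (ENSG00000198223, chromosome X, 1268800 to 1310381, plus strand) encodes the alpha chain that binds GM-CSF. It had 17.3, 22.2 and 21.8 CPM in IKZF1-ko replicates 1, 2 and 3 and 17.2, 13.7 and 16.7 CPM in NT control. It was the only one of the 6 whose groups did not overlap over all libraries. The margin was 17.31 CPM in IKZF1-ko replicate 1 against 17.22 CPM in NT control replicate 1. It depended on the TMM factors, 0.98269 and 1.0085 for these libraries. On plain library totals, with 259 of 15250588 counts against 203 of 11699047, NT control replicate 1 was the higher and the groups overlapped. Non-overlapping groups with IKZF1-ko higher were found for 5.28% of all genes tested. CSF2RA averaged 20.4 ± 2.71 CPM in IKZF1-ko and 15.9 ± 1.93 CPM in NT control (SD, n = 3 each), and was 1.29-fold higher with the set term (log2 fold change 0.36, SE 0.090, edgeR adjusted p = 0.012). The value was 0.37 in the 4 libraries (edgeR adjusted p = 0.014), 0.41 with the surrogate variable (edgeR adjusted p = 0.0076) and 0.34 in the pair that stood apart. The call with the set term was lost with DESeq2 (adjusted p = 0.0535) and without IKZF1-ko replicate 3 (edgeR adjusted p = 0.057). That in the 4 libraries was lost with DESeq2 (adjusted p = 0.14) and without IKZF1-ko replicate 2 (edgeR adjusted p = 0.061) or NT control replicate 3 (0.066).

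IL3RA and CSF2RA lie in the pseudoautosomal region 1 of chromosome X, which chromosome Y shares, and the table has 1 row for each. Reads from either chromosome cannot be told apart there, and the counts per gene do not separate membrane-bound from soluble forms. Of 14 neighbouring genes of that region, 10 were tested, and with the set term 1 rose and 0 fell. It was PLCXD1, at 167 ± 118 CPM in IKZF1-ko and 132 ± 91.8 CPM in NT control (SD, n = 3 each; log2 fold change 0.33, edgeR adjusted p = 3.41e-04). In the 4 libraries SLC25A6, which encodes a mitochondrial ADP/ATP carrier (0.26), and ASMTL (0.36) rose with it, and with the surrogate variable 0 of the 10 were called. The median log2 fold change of the 10 was 0.12 with the set term and 0.08 in the 4 libraries.

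IL5RA (ENSG00000091181, chromosome 3, 3066326 to 3126613, minus strand), the alpha chain that binds interleukin 5 on eosinophils and basophils, had 0 counts in all 6 libraries. A count of 0 allows up to 0.165 to 0.197 CPM in the IKZF1-ko libraries and 0.200 to 0.266 CPM in the NT control libraries, as a floor of 3 counts per library that covers counting error only. No fold is given for it.

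CSF2RB (ENSG00000100368, chromosome 22, 36913628 to 36940449, plus strand), the common beta chain, had 37.3, 67.9 and 63.9 CPM in IKZF1-ko replicates 1, 2 and 3 and 59.5, 34.5 and 57.1 CPM in NT control. The lowest library of each group was the one that stood apart, and the groups overlapped. Means were 56.4 ± 16.6 CPM in IKZF1-ko and 50.4 ± 13.8 CPM in NT control (SD, n = 3 each). CSF2RB did not pass with the set term (log2 fold change 0.16, SE 0.062, edgeR adjusted p = 0.10) or in the 4 libraries (0.18, SE 0.064, edgeR adjusted p = 0.064). It passed with the surrogate variable (0.27, edgeR adjusted p = 0.011) and in the 4 libraries without IKZF1-ko replicate 3 (0.22, edgeR adjusted p = 0.0445). The pseudogene CSF2RBP1, which could take reads of the same sequence, had 0 counts in all 6 libraries. The counter is not stated, so this does not show whether reads that match both genes were dropped.

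**Figure D2:**
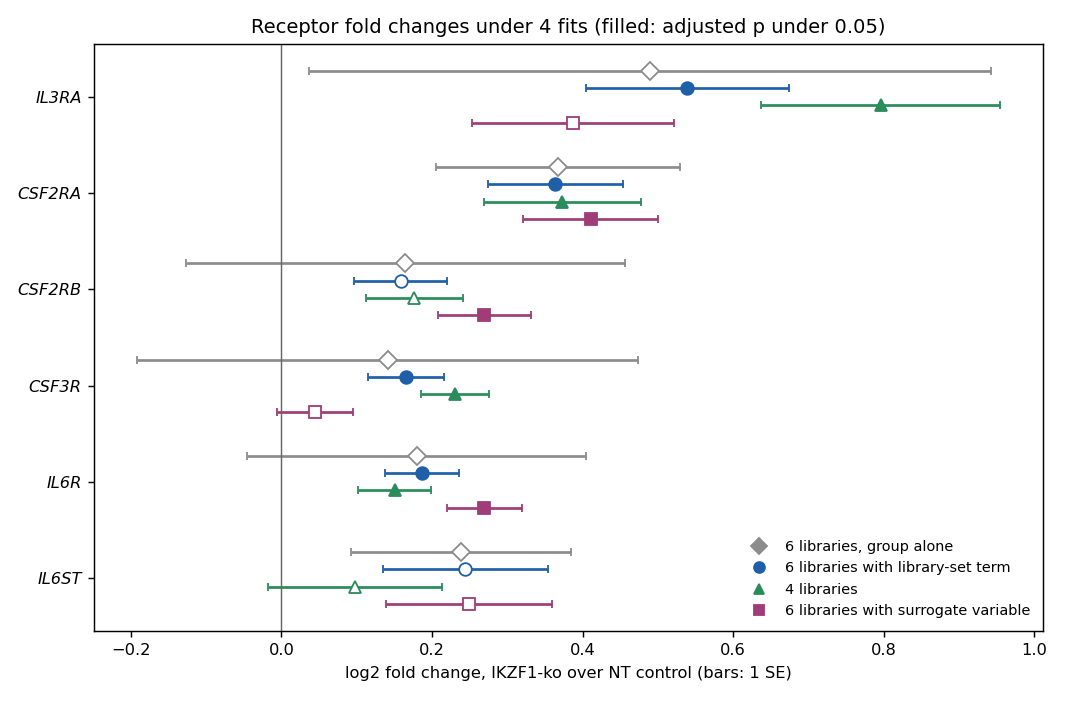
Log2 fold change of each tested receptor gene, IKZF1-ko over NT control, in 4 edgeR fits; bars are 1 SE and filled symbols have an adjusted p under 0.05. All points lie above 0; IL3RA spans 0.39 to 0.80, CSF2RA 0.36 to 0.41 and CSF3R 0.04 to 0.23, and the bars on group alone are the widest for each gene.

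CSF3R (ENSG00000119535, chromosome 1, 36466043 to 36483278, minus strand), the G-CSF receptor of the neutrophil lineage, had the most counts of the 7, from 2295 to 6159 per library. It had 412, 243 and 242 CPM in IKZF1-ko replicates 1, 2 and 3 and 213, 400 and 201 CPM in NT control. The libraries that stood apart were nearly equal to each other and far above the other 4, so the groups overlapped. Within the 4 libraries IKZF1-ko was 1.17-fold higher (log2 fold change 0.23, SE 0.045, edgeR adjusted p = 5.79e-04), and over 6 libraries with the set term it was 1.12-fold higher (0.17, SE 0.050, edgeR adjusted p = 0.037). In the pair that stood apart the difference was 0.04, and with the surrogate variable it was 0.04 (SE 0.051, edgeR adjusted p = 0.67). The call with the set term was also lost with DESeq2 (adjusted p = 0.068) and without IKZF1-ko replicate 2 (edgeR adjusted p = 0.11), IKZF1-ko replicate 3 (0.20), NT control replicate 1 (0.12) or NT control replicate 3 (0.21).

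IL6R (ENSG00000160712, chromosome 1, 154405193 to 154469450, plus strand), which binds interleukin 6, had 104, 151 and 151 CPM in IKZF1-ko replicates 1, 2 and 3 and 134, 86.8 and 138 CPM in NT control. Again the lowest library of each group was the one that stood apart. IL6R was 1.14-fold higher with the set term (log2 fold change 0.19, SE 0.049, edgeR adjusted p = 0.018) and 1.11-fold higher in the 4 libraries (0.15, SE 0.049, edgeR adjusted p = 0.034). It was 0.27 with the surrogate variable (edgeR adjusted p = 0.0021) and 0.26 in the pair that stood apart. The call in the 4 libraries was lost when any of them was left out (edgeR adjusted p of 0.071 to 0.23) and with DESeq2 (adjusted p = 0.18), and that with the set term was lost with DESeq2 (adjusted p = 0.0533) and without IKZF1-ko replicate 3 (edgeR adjusted p = 0.089) or NT control replicate 1 (0.091).

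IL6ST (ENSG00000134352, chromosome 5, 55935095 to 55994993, minus strand), the signalling chain of the interleukin 6 family, had 18.6, 17.4 and 15.8 CPM in IKZF1-ko replicates 1, 2 and 3 and 14.9, 12.8 and 16.2 CPM in NT control. Groups overlapped over all 6 libraries and within the 4. IL6ST did not pass with the set term (log2 fold change 0.24, SE 0.11, edgeR adjusted p = 0.16) or in the 4 libraries (0.10, SE 0.12, edgeR adjusted p = 0.65). Nor did it pass with the surrogate variable (0.25, edgeR adjusted p = 0.20). In the pair that stood apart the difference was 0.53, the largest there among the tested receptor genes. IL6ST shares 797 exon bases with an antisense gene that had 0 counts in all libraries, as had its pseudogene IL6STP1. These 797 bases are the whole exon length of the antisense gene. The counter and strand setting are not stated, so the 0 counts do not show whether reads of shared sequence were dropped.

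In the 4 libraries 5 of the 6 tested genes, all but IL6ST, had groups that did not overlap, with IKZF1-ko higher; 27.7% of all genes tested there had this. Depth differed in the same direction, at 18214328 and 16751839 counts in these IKZF1-ko libraries and 11699047 and 11300519 in these NT control libraries, and its part was not tested.

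Promoter sequences are shown for the 4 genes that rose with the set term, because the targeted gene encodes a DNA-binding factor. They are the 250 bases before the RefSeq start on GRCh38.p14, 5′ to 3′ on the gene's strand. Capitals mark matches to GGGAA, the core of the motif known for Ikaros, or to its reverse complement TTCCC.
IL3RA: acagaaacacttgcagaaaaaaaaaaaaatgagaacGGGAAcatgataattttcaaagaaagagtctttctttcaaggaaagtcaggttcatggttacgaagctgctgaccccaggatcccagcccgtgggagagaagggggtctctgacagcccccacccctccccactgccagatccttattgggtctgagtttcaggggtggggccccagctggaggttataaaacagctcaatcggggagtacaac
CSF2RA: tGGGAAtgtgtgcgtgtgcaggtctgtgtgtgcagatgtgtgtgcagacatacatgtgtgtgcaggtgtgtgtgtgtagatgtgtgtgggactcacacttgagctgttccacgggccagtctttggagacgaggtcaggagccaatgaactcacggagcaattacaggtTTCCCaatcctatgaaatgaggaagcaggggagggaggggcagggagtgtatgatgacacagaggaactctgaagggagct
CSF3R: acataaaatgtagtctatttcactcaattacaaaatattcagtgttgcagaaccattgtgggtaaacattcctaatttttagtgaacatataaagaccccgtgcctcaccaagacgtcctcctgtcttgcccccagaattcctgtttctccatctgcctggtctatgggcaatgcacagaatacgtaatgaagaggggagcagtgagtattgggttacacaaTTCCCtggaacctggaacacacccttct
IL6R: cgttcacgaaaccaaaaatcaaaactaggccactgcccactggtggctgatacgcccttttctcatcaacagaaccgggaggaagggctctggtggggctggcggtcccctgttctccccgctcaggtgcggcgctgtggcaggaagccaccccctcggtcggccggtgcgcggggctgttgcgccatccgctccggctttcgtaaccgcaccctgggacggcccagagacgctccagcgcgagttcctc
The IL3RA window is at chrX:1336535-1336784 on the plus strand, CSF2RA at chrX:1268564-1268813 on the plus strand, CSF3R at chr1:36483315-36483564 on the minus strand, and IL6R at chr1:154405093-154405342 on the plus strand. The RefSeq starts used here differ from the GENCODE gene starts given above. The larger part of the IL3RA and IL6R windows, and the last bases of the CSF2RA window, therefore lie inside those gene bounds. There was 1 match in the IL3RA window, 2 in CSF2RA, 1 in CSF3R and 0 in IL6R. The core occurred at least once in 59.1% and at least 2 times in 24.1% of 34961 windows of that length outside chromosome Y. A second RefSeq start of CSF3R had 2 matches, IL6ST had 1 and IL5RA had 0. A match of 5 letters describes the sequence and does not show binding.

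Levels between genes were compared as CPM per kilobase of annotated exon. CSF3R was highest, at 35.5 ± 11.6 in IKZF1-ko and 32.2 ± 13.2 in NT control (SD, n = 3 each). IL6R followed at 21.0 ± 4.18 in IKZF1-ko and 18.5 ± 4.40 in NT control, then CSF2RB at 11.3 ± 3.33 and 10.1 ± 2.76 CPM per kilobase for IKZF1-ko and NT control. IL3RA had 8.19 ± 2.90 CPM per kilobase in IKZF1-ko and 5.78 ± 3.56 in NT control, and CSF2RA had 5.33 ± 0.709 in IKZF1-ko and 4.14 ± 0.504 in NT control. The ranges of 1 SD around the means overlapped in each group for CSF2RB and IL3RA and for IL3RA and CSF2RA. Within libraries, CSF2RB was above IL3RA in each of the 4 libraries, as with 13.6 against 6.71 in IKZF1-ko replicate 2. It was below IL3RA in both that stood apart (7.46 against 11.5 in IKZF1-ko replicate 1, 6.89 against 9.86 in NT control replicate 2). IL3RA was above CSF2RA in every library but NT control replicates 1 and 3. The ranges of CSF3R and IL6R overlapped too, but CSF3R was above IL6R in each of the 6 libraries. IL6ST was the lowest of the 6, at 1.86 ± 0.148 CPM per kilobase in IKZF1-ko and 1.58 ± 0.182 in NT control. With the length of the longest coding transcript in place of all exons, an alternative added after the data were seen, CSF2RA had 8.92 ± 1.19 in IKZF1-ko and 6.92 ± 0.843 in NT control, above IL3RA at 8.21 ± 2.91 in IKZF1-ko and 5.80 ± 3.57 in NT control, and CSF3R had 86.6 ± 28.2 in IKZF1-ko and 78.5 ± 32.3 in NT control. IL6R then had 22.9 ± 4.56 in IKZF1-ko and 20.2 ± 4.8 in NT control, and its ranges no longer overlapped those of CSF3R.

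The balance between chains was read as the log2 ratio of their counts within a library, which does not depend on scaling. IL3RA over CSF2RB was -0.92, -2.56 and -2.56 in IKZF1-ko replicates 1, 2 and 3 and -3.04, -1.03 and -3.34 in NT control. The ratio was thus highest in the library of each group that stood apart. IKZF1-ko minus NT control was 0.46 over 6 libraries (exact permutation p = 0.50, two-sided; adjusted p = 0.75 over 3 ratios), 0.63 in the 4 libraries and 0.11 in the pair that stood apart. Without IKZF1-ko replicate 1 it was -0.092, and without NT control replicate 2 it was 1.18.

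CSF2RA over CSF2RB was -1.11, -1.61 and -1.55 in IKZF1-ko and -1.78, -1.33 and -1.77 in NT control. The difference was 0.21 (exact permutation p = 0.50; adjusted p = 0.75), with 0.20 in the 4 libraries and 0.23 in the pair that stood apart. It was 0.049 without IKZF1-ko replicate 1 and 0.36 without NT control replicate 2. IL6R over IL6ST was 2.49, 3.11 and 3.25 in IKZF1-ko and 3.16, 2.75 and 3.09 in NT control, a difference of -0.05 (exact permutation p = 0.90; adjusted p = 0.90). In 3 against 3 the smallest p this test can give is 0.10.

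**Figure D3:**
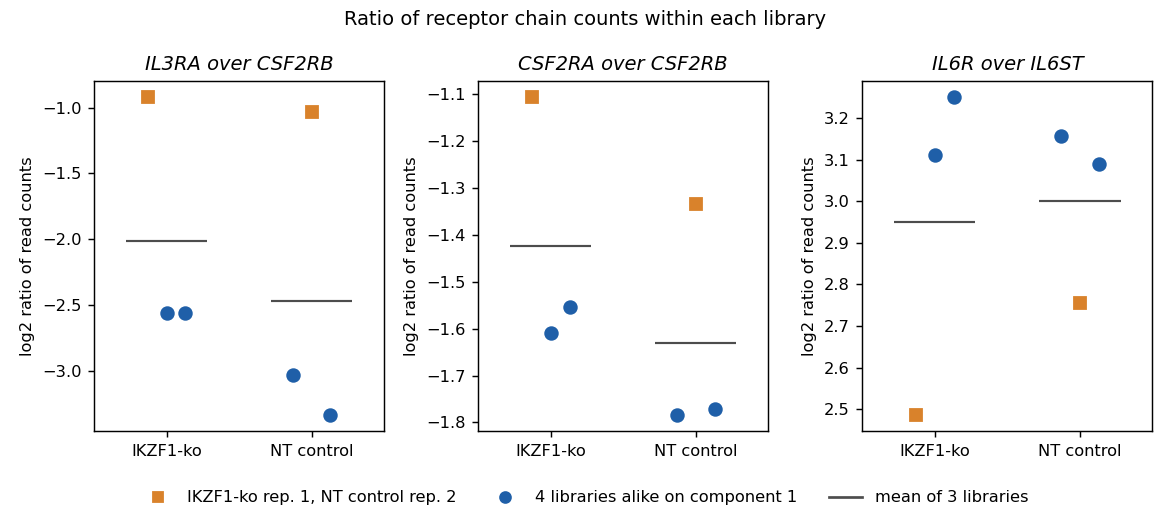
Log2 ratio of read counts of receptor chains in each library, IKZF1-ko left and NT control right; squares are the libraries that stood apart, circles the other 4, and lines the mean of 3. For IL3RA over CSF2RB the squares lie at -0.92 and -1.03 and the circles between -3.34 and -2.56.

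The receptor genes differed among themselves in how they moved with the library sets, given here as a description because the sets were drawn from the same counts. IL3RA was higher in the library that stood apart than in the other 2 of its group by 0.82 on the log2 scale in IKZF1-ko and 1.39 in NT control. CSF3R was higher by 0.76 in IKZF1-ko and 0.95 in NT control. For CSF2RB the differences were -0.82 in IKZF1-ko and -0.76 in NT control, for IL6R -0.53 in IKZF1-ko and -0.64 in NT control, and for CSF2RA -0.34 in IKZF1-ko and -0.31 in NT control. IL6ST had 0.16 in IKZF1-ko and -0.27 in NT control. The mean of both groups was larger in size than that of IL3RA for 6.36% of all genes tested, and the median size over all genes was 0.35. For IL3RA, CSF3R, CSF2RB and IL6R these differences were larger than the fold changes between IKZF1-ko and NT control.

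Across the 6 libraries, log2 CPM of IL3RA went with that of CSF3R (Pearson r = 0.94) and CSF2RB with that of IL6R (0.98), while IL3RA and CSF2RB had an r of -0.69. The points share the library sets, so these are descriptions with no test. The genes most like IL3RA over the 6 libraries were FBP1, which encodes a gluconeogenic enzyme (r = 0.9952), GID4 (0.9944) and the kinesin gene KIF17 (0.9942). Among those most like CSF2RA were OTULINL (0.9958) and MXRA7 (0.9947), and most like CSF2RB were TCF20 (0.9985), PI4KB (0.9974) and WASHC4 (0.9973). For CSF3R they were METTL25B (0.9998), MROCKI (0.9995) and EVI2A (0.9995), for IL6R KCTD12 (0.9975), SLC7A2 (0.9970) and CBX6 (0.9964), and for IL6ST MAN2A1 (0.9735), CCDC15 (0.9727) and KTN1 (0.9577).

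Ligands of these receptors were nearly absent. IL3, CSF2, CSF3, IL5, IL6 and IL11 had 0 counts in all 6 libraries. Of 11 ligand genes 1 was tested, OSM, which encodes oncostatin M, a ligand that signals through IL6ST; it had 2.00, 0.93 and 1.00 CPM in IKZF1-ko and 0.85, 3.34 and 1.66 CPM in NT control (log2 fold change -0.55 with the set term, edgeR adjusted p = 0.25). The next highest ligand gene, CTF1 (cardiotrophin 1), had 0.33 to 0.87 CPM in IKZF1-ko and 0.34 to 0.48 CPM in NT control and was not tested.

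Of 26 other type I cytokine receptor genes 13 were tested with the set term; 2 rose and 0 fell, and the median log2 fold change was -0.08. IL13RA1, a chain of the receptors for interleukins 4 and 13, had 24.4 ± 1.86 CPM in IKZF1-ko and 17.3 ± 3.27 CPM in NT control (SD, n = 3 each; log2 fold change 0.51, SE 0.099, edgeR adjusted p = 0.0024). IL11RA, the interleukin 11 receptor, which pairs with IL6ST, had 22.0 ± 6.19 CPM in IKZF1-ko and 15.6 ± 4.54 CPM in NT control (0.50, SE 0.099, edgeR adjusted p = 0.0028). The same 2 genes rose in the 4 libraries and with the surrogate variable, where IL2RG, the common gamma chain, also fell (-0.42, edgeR adjusted p = 0.045). Of 8 tested type II cytokine receptor genes 0 were called with the set term, and in the 4 libraries the interferon gamma receptor gene IFNGR1 fell (-0.18, edgeR adjusted p = 0.043).

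Of 18 genes of receptor kinases and signal transducers, all tested, 1 rose and 0 fell with the set term. It was GAB2, a scaffold adaptor of the common beta chain pathway, at 51.6 ± 8.53 CPM in IKZF1-ko and 41.7 ± 7.04 CPM in NT control (SD, n = 3 each; log2 fold change 0.31, SE 0.067, edgeR adjusted p = 0.0057; 0.31 in the 4 libraries). In the 4 libraries STAT5A also rose (0.36, edgeR adjusted p = 0.0044), and with the set term it had 0.24 (edgeR adjusted p = 0.0506). JAK2, the kinase bound to CSF2RB, had 24.6, 18.1 and 20.0 CPM in IKZF1-ko and 19.4, 19.8 and 16.6 CPM in NT control (0.16, edgeR adjusted p = 0.30). The listed median was 0.03 with the set term.

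Of 17 tested genes of feedback and receptor turnover 2 rose and 1 fell with the set term, and the same 3 were called in the 4 libraries. RNF41, a ubiquitin ligase that acts on cytokine receptors, had 113 ± 38.4 CPM in IKZF1-ko and 91.6 ± 29.1 CPM in NT control (SD, n = 3 each; log2 fold change 0.29, SE 0.051, edgeR adjusted p = 9.47e-04). CBL, a ubiquitin ligase for activated receptors, rose by 0.18 (edgeR adjusted p = 0.015), with 254 ± 1.99 CPM in IKZF1-ko and 225 ± 5.17 CPM in NT control. PTPN6, the phosphatase SHP-1, fell by 0.21 (edgeR adjusted p = 0.0090), with 171 ± 5.64 CPM in IKZF1-ko and 197 ± 8.13 CPM in NT control. CISH, a STAT5-induced inhibitor, had a log2 fold change of 0.17 (edgeR adjusted p = 0.40).

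Genes known to be induced by STAT5 moved both ways: of 11, all tested, 2 rose and 1 fell with the set term. ID1, an inhibitor of DNA binding, had 4.43 ± 1.65 CPM in IKZF1-ko and 2.30 ± 0.356 CPM in NT control (SD, n = 3 each; log2 fold change 0.94, edgeR adjusted p = 0.0070) and did not pass in the 4 libraries (0.72, edgeR adjusted p = 0.071). The cyclin gene CCND3 rose (0.23, edgeR adjusted p = 0.0072; 0.17 in the 4 libraries). The kinase gene PIM2 fell by 0.42 (edgeR adjusted p = 0.0033), at 23.0 ± 5.41 CPM in IKZF1-ko and 30.8 ± 9.11 CPM in NT control. MYC rose in the 4 libraries alone (0.15, edgeR adjusted p = 0.010), against 0.05 (edgeR adjusted p = 0.65) with the set term.

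**Figure D4:**
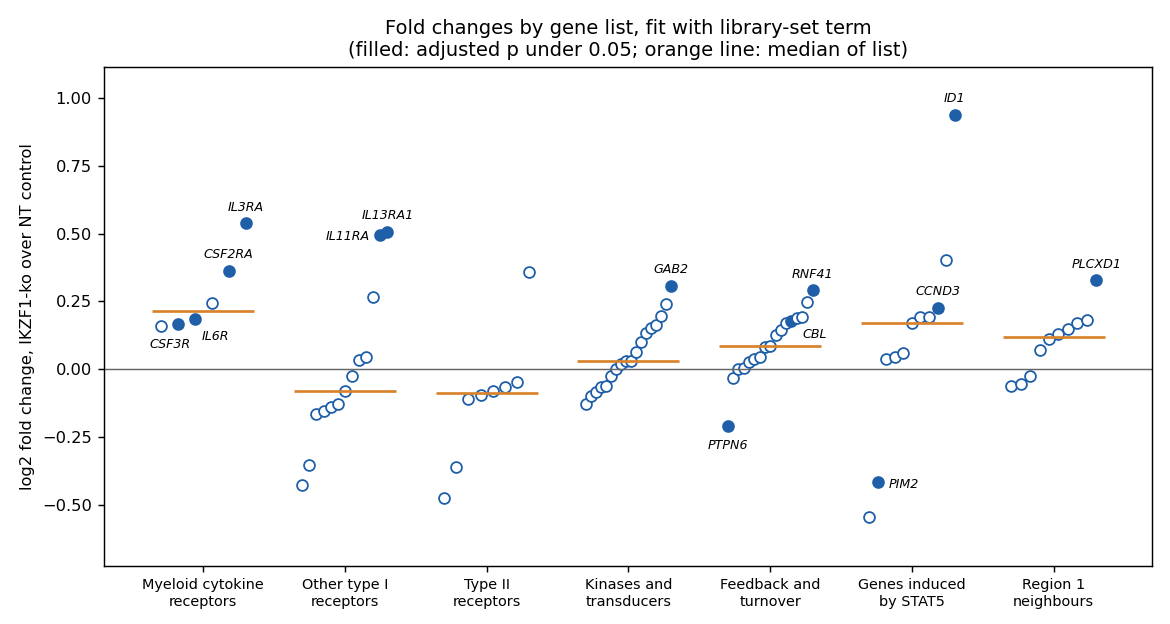
Log2 fold change, IKZF1-ko over NT control, of each tested gene by list, fitted by edgeR with a term for library set; filled symbols have an adjusted p under 0.05 and orange lines are list medians. The 6 myeloid cytokine receptor genes all lie above 0 with a median of 0.22, against -0.08 for the other type I receptors and 0.03 for the kinases and transducers.

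The cell line's markers were in part as the label has it. SPI1 (196.5 to 240 CPM in IKZF1-ko, 226 to 231 in NT control), CEBPA (237 to 261 CPM in IKZF1-ko, 223 to 254 in NT control) and CD33 (77.4 to 96.2 CPM in IKZF1-ko, 72.3 to 84.5 in NT control) were present in all libraries, while the progenitor marker CD34 had 0 counts. Of 12 such myeloid markers 7 were tested. Besides CD34, the list's KIT, ANPEP, ITGAM and CD14 did not pass the filter. Over the 6 libraries they had 0 to 0.218, 0.0591 to 0.700, 0.424 to 1.18 and 0 to 0.655 CPM, in that order. The summed level of the 12 was 1024 to 1046 CPM in IKZF1-ko and 1028 to 1065 CPM in NT control. Of the 7, 2 rose and 1 fell with the set term. CSF1R, the M-CSF receptor of monocytes, had 7.82, 16.8 and 14.1 CPM in IKZF1-ko and 4.58, 1.30 and 3.85 CPM in NT control (log2 fold change 2.03, edgeR adjusted p = 5.09e-07). The receptor kinase gene FLT3 rose by 0.24 (edgeR adjusted p = 0.0036), and LYZ, which encodes lysozyme, fell by 0.36 (edgeR adjusted p = 1.23e-04). For cells that carry these receptors in blood, the summed level of 7 plasmacytoid dendritic cell markers was 44.4 to 54.0 CPM in IKZF1-ko and 33.9 to 45.3 CPM in NT control. Of these 7, 4 were tested and NRP1 was the only one called with the set term; the defining markers CLEC4C, LILRA4 and GZMB were at 0 to 0.164 CPM. The 7 eosinophil markers summed to 2.07 to 2.18 CPM in IKZF1-ko and 2.80 to 7.78 CPM in NT control, with 3 at 0 counts in all libraries, and EPX (eosinophil peroxidase) fell by 1.40 with the set term (edgeR adjusted p = 0.0031). EPX had 1.47, 1.2 and 1.12 CPM in IKZF1-ko and 1.87, 6.42 and 2.36 CPM in NT control, and in the 4 libraries, which leave out the high NT control replicate 2, it did not pass (-0.86, edgeR adjusted p = 0.11). The 7 basophil and mast cell markers summed to 10.7 to 15.0 CPM in IKZF1-ko and 19.9 to 29.6 CPM in NT control, with 2 at 0 counts, and GATA2 and HDC fell by 0.97 and 2.61 on the log2 scale (edgeR adjusted p = 3.79e-06 and 3.70e-04). Most of each sum was GATA2, at 7.75 to 13.7 CPM in IKZF1-ko and 16.7 to 26.0 CPM in NT control. MS4A2, the only other of these markers tested, went the other way without a call, with means of 1.14 CPM in IKZF1-ko and 0.57 CPM in NT control. The part of these marker shifts in the receptor values was not tested. The 7 lymphoid markers summed to 7.15 to 11.3 CPM in IKZF1-ko and 7.96 to 11.1 CPM in NT control, with 3 at 0 counts. In bulk RNA, fewer cells with a transcript and less of it per cell cannot be told apart.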

How the data were processed

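Polyadenylated RNA of OCI-AML2 was sequenced from stranded mRNA libraries, per the labels' protocols. The authors deposited whole-number read counts per Ensembl gene and library, with no scaling, and the submitters' processing notes name Trimmomatic, STAR and the build GRCh38. The sources used here do not say which counter, strand setting or annotation was applied. Columns were matched to samples by library name, and 0 columns belonged to other samples. Positions and exon lengths came from GENCODE release 29, which holds 57895 of the identifiers, and 57392 had a symbol.

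The members and gene lists (13 beside the members) were chosen with earlier results of these data known, as was the library-set term, the sign of the first principal component. Counts were kept by filterByExpr of edgeR 4.0.16 (R 4.3.3), by group, which left 13028 genes with 99.9% of all counts and, in the 4 libraries, 12951. They were scaled by TMM and tested with the quasi-likelihood F test, two-sided, adjusted by Benjamini-Hochberg over all genes at 0.05. Log2 CPM used a prior count of 2. The standard error is the size of the log2 fold change over the square root of F. Chain ratios had 0.5 added to each count and an exact permutation test over libraries. Text values in CPM are means ± SD over 3 libraries.

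Named were all members, the genes of each list called with the set term or in the 4 libraries, the 2 of highest CPM where none was called, and for each member the 3 genes with the highest Pearson r among those of at least 5 CPM. IL2RG, JAK2, CISH and the markers given singly were chosen after their values were seen. Some genes that this rule names are not reported here. Promoters are from RefSeq on GRCh38.p14; 6 of 7 members matched.

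Alternatives were RLE and library-size scaling, no filter, DESeq2 1.42.0, limma-voom (limma 3.58.1), a replicate block, 1 surrogate variable (sva 3.50.0) and each library left out. The most alike libraries of a group were replicates 2 and 3 of IKZF1-ko and 1 and 3 of NT control; their chi-square per degree of freedom was 2.31 for IKZF1-ko and 2.25 for NT control, above sampling noise, so each library counted as 1 sample. On simulated counts for 13028 genes with 200 changed, edgeR on group alone recovered 0% of 1.5-fold and 20% of 2-fold changes, and with the set term 70% and 88%, with 6 false calls among 156. In the 4 libraries, on 12951 genes, it recovered 82% of 1.5-fold and 82% of 2-fold changes, with 9 false calls among 161. Of 1.25-fold changes, nearer in size to most receptor folds here, it recovered 0% on group alone, 44% with the set term and 44% in the 4 libraries. The simulated counts took the library sets as known and varied independently between genes. These rates therefore leave out the choice of the sets and any shared shift between libraries that a fit does not model. Figures were drawn with matplotlib 3.10.9.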

Additional observations from a re-analysis of the deposited data

How the results depend on the processing

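Of 198 fold changes of single receptor genes under an alternative, 168 kept their direction and their side of the threshold, 21 lost a call, 4 gained one and 5 changed sign. All 5 were on group alone with 1 library left out: CSF2RB ranged from -0.048 to 0.39, CSF3R from -0.16 to 0.53 and IL6R from -0.0053 to 0.34 on the log2 scale. Many of the 168 had no call to lose: no receptor gene was called on group alone. CSF2RB and IL6ST were not called with the set term or in the 4 libraries either. With the set term, IL3RA lost its call under 3 alternatives and kept it under 8. The lost and kept calls there were 2 and 9 for CSF2RA, 5 and 6 for CSF3R, and 3 and 8 for IL6R. The kept calls of each gene include the fits without IKZF1-ko replicate 1 and without NT control replicate 2. In these the set term takes up the 1 library left that stood apart, so they nearly repeat the fit in the 4 libraries. For IL3RA they gave 0.7968 and 0.7965, against 0.7959 in the 4 libraries. They are therefore no separate check of the calls. On group alone the genes called were 0 with each library left out, 8 without a filter, 71 with DESeq2, 1 with limma-voom and 1047 with a surrogate variable. DESeq2 called 825 genes in the 4 libraries and 1159 with the set term, where edgeR called 1908 and 1765. Leaving out 1 library gave 1339 to 1501 genes in the 4 libraries and 811 to 1943 with the set term (948 without NT control replicate 1, 811 without IKZF1-ko replicate 3). With 1 library of a group left, that library is assumed to vary like the other group. The ratio IL3RA over CSF2RB ranged from -0.092 to 1.18 when 1 library was left out, CSF2RA over CSF2RB from 0.049 to 0.36, and IL6R over IL6ST from -0.20 to 0.18 (0.057 in the 4 libraries). The cause of these shifts was not tested. A replicate block on group alone called 0 genes and changed no receptor call; the deviations of same-numbered libraries had an r of -0.66 for replicate 1, -0.69 for replicate 2 and 0.59 for replicate 3, so the numbers were not taken to pair them. No other scaling moved the median of all genes by more than 0.01 on the log2 scale. IL3RA rested on as few as 64 counts per library.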
